A study of Mus musculus with 12 samples.

Results

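A pair of transcription regulators that act on the same genes were set side by side here: Srf, overexpressed in 1 group of neural progenitor cells (NPCs), and its cofactor Mkl1, overexpressed in another. The arrays were assigned by their titles alone and are the 4 labelled Srf (replicates 1 and 2) or Mkl1 (replicates 1 and 2), of 12 arrays in the series. All 12 were hybridised with RNA of mouse NPCs differentiated in vitro and kept in medium with EGF and bFGF at 10 ng/ml each, and every group had received 1 transgene by retrovirus: Srf, Mkl1, EGFP as the overexpression control, a hairpin against EGFP (shEGFP) or 1 of the hairpins against Actb (shActb_1, shActb_2). The study's methods describe retroviral pMXs vectors holding open reading frames, and NPC lines derived from the embryonic stem cell line EB5, of which N31 carries doxycycline-inducible reprogramming genes. For its molecular analyses the study names NSEB5-2C or N31 as the NPCs, and which of them gave this RNA is not given in the sources used here. The study describes the Actb knockdown arrays as technical duplicates, and no source says that the 2 arrays of any group came from separate cultures. The p-values and standard errors below therefore cover the spread between arrays of what may be 1 culture a group, and not the spread between cultures, so they compare these RNA samples rather than the conditions. The question the direct comparison addresses is which genes separate the factor from its actin-regulated cofactor.

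Srf is a MADS-box transcription factor that binds the CArG box, an A/T-rich element in the promoters of muscle, cytoskeletal and growth-factor-induced genes. Cofactors of different families work with it at different genes. Mkl1, listed as Mrtfa in current annotation and also called MRTF-A, is held in the cytoplasm by monomeric actin and enters the nucleus when the monomer pool falls, where it joins Srf at contractile and cytoskeletal genes. The ternary complex factors Elk1, Elk3 and Elk4 compete with it for the same surface of Srf and carry growth factor signals to immediate-early genes such as Fos and Egr1.

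The 4 arrays lay in 1 row of 1 slide, Mkl1 in positions 1 and 2 and Srf in positions 3 and 4, so position along the row and group cannot be told apart. The EGFP arrays lay in positions 3 and 4 of another row of that slide. Between 62.7% and 66.3% of the 55681 probes were well above background on the 4 arrays. Among probes above background on both arrays of a group, 0.802% differed over 2-fold between the Srf replicates, 0.505% between the Mkl1 replicates and 2.77% between the EGFP replicates, against 5.12% to 5.58% between any Srf and any Mkl1 array. Levels below are the log2 signal of a probe relative to the 75th percentile of its array, and differences are Srf minus Mkl1 on that log2 scale with the standard error (SE) of the fit. Levels of different probes cannot be compared with each other.

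The genes named in the titles were read first. Of the Srf probes, one stood at 0.24 and 0.26 on the arrays labelled Srf, at 3.41 and 3.43 on the arrays labelled Mkl1 and at 2.64 and 2.78 on the EGFP arrays. The other stood at 1.20 and 1.32 on the arrays labelled Srf, at 3.81 and 3.87 on the arrays labelled Mkl1 and at 2.45 and 2.87 on the EGFP arrays. Both were thus lowest on the arrays labelled Srf, with differences of -3.17 ± 0.06 and -2.58 ± 0.13 (SE, n = 2 arrays a group). That goes against the label, and where these probes lie relative to the introduced reading frame was not determined, so they do not check it. Every direction below is drawn between arrays labelled Srf and arrays labelled Mkl1 with this in view. Where "with Srf", "with Mkl1" or "the factors" is written below, the arrays so labelled are meant. The brighter Mrtfa probe stood at 3.72 and 3.56 on the arrays labelled Mkl1, at 3.20 and 3.21 on the arrays labelled Srf and at 3.62 and 3.31 on the EGFP arrays, a difference of -0.43 ± 0.11 that did not reach 2-fold (limma, adjusted p = 0.023). A second Mrtfa probe differed by -0.37 ± 0.08. Neither rose over 2-fold on the arrays labelled Mkl1 against EGFP, where the differences were 0.17 and 0.20. The label Mkl1 was therefore not checked by these probes either.

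The labelled cell type was checked with 9 NPC markers. In each group 8 of the 9 were above background on both arrays, among them Nes, Sox2, Vim, Pax6 and Sox9, and Olig2 was not. Sox2 stood at 0.59 and 0.35 on the arrays labelled Srf and at 0.58 and 0.67 on the arrays labelled Mkl1, which overlap. Nes was 2.13-fold higher on the arrays labelled Mkl1, and Fabp7 and Slc1a3 were 3.01-fold and 2.26-fold higher on the arrays labelled Srf.

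Across 35718 tested probes, 1787 differed over 2-fold at an adjusted p under 0.05 (limma, 5.00% of probes), 1165 of them higher on the arrays labelled Srf and 622 higher on those labelled Mkl1. With normexp background correction the count was 902 (555 and 347). Taken as 1 probe per named gene, 747 of 15732 genes were higher on the arrays labelled Srf (4.75%) and 388 were higher on the arrays labelled Mkl1 (2.47%), with a median difference of -0.05 over all genes. The balance depended on signal and threshold. Of 4 equal classes of probes by mean signal, the brightest held 38 higher on the arrays labelled Srf and 108 on those labelled Mkl1, whereas the next to dimmest held 484 and 154. With the adjusted p alone, 3963 probes were higher on the arrays labelled Srf and 5171 on those labelled Mkl1. For 118 of the 747 and 38 of the 388 genes, neither array of the lower group was well above background, so the fold change there is only a lower bound, computed against the dimmest signal that counted as detected on each array and written below as "at least". The bound itself exceeded 2-fold for 87 of the 118 and 17 of the 38. The others of these were counted as called without a measured 2-fold difference.

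**Figure D1:**
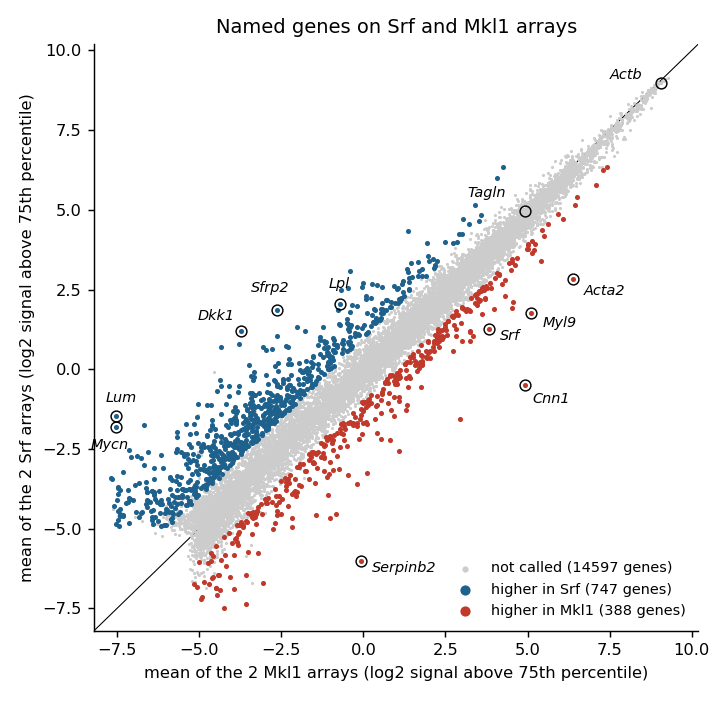
Mean level of 15732 named genes on the 2 arrays labelled Mkl1 (horizontal) and the 2 arrays labelled Srf (vertical), both as log2 signal relative to the 75th percentile of the array; colours mark the 747 and 388 genes called in each direction and the line marks equal levels. The most intense genes, such as Actb, lie on the line, Acta2, Cnn1 and Myl9 lie far to the Mkl1 side, and most genes called higher on the arrays labelled Srf have low signals.

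EGFP arrays show on which side a difference arose. Of the 747 genes higher on the arrays labelled Srf, the EGFP level was nearer Mkl1 for 507 and lay between the groups for 536, below both for 170 and above both for 41. Of the 388 genes higher on the arrays labelled Mkl1, EGFP was nearer Mkl1 for 242, lay between the groups for 257, was below both for 41 and above both for 90. The EGFP arrays shared the row positions of the Srf arrays and not those of the Mkl1 arrays.

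The genes of the smooth muscle contractile apparatus lay to the Mkl1 side. Of 15 tested members of this list, 6 were higher on the arrays labelled Mkl1 (40%) and 1 on those labelled Srf (6.67%). The median difference was -0.81. For this and every list below, the shares over all named genes were 2.47% higher on the Mkl1 side and 4.75% on the Srf side. Cnn1, the actin-binding calponin of smooth muscle, stood at 5.02 and 4.84 on the arrays labelled Mkl1, at -0.50 and -0.49 on those labelled Srf and at -1.61 and -1.67 with EGFP. That is a 42.9-fold difference between the factors (-5.42 ± 0.07, limma, adjusted p = 1.145e-07). Acta2, smooth muscle α-actin, stood at 6.39 and 6.37 on the arrays labelled Mkl1, at 2.75 and 2.91 on those labelled Srf and at -0.61 and -0.48 with EGFP, a difference of -3.55 ± 0.08. The 3 groups did not overlap for either gene, and both were higher than EGFP with each factor. Myl9, the regulatory myosin light chain, stood at 5.22 and 5.01 on the arrays labelled Mkl1 and at 1.80 and 1.74 on those labelled Srf, close to the 1.56 and 1.46 with EGFP. Its difference was -3.34 ± 0.08, and against EGFP the arrays labelled Srf differed by 0.26.

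Tagln, which encodes the actin-bundling protein SM22α, did not follow this pattern. It stood at 4.86 and 5.04 on the arrays labelled Srf and at 4.99 and 4.86 on those labelled Mkl1, so the groups overlapped, against 2.96 and 2.25 with EGFP. The difference between the factors was 0.02 ± 0.22, with a 95% interval of -0.49 to 0.54. Mylk, the myosin light chain kinase, was the 1 member higher on the arrays labelled Srf, at -1.53 and -1.39 against -2.56 and -2.71 with Mkl1. Tpm2 and Smtn, a tropomyosin and an actin-binding smoothelin, were 2.58-fold and 2.28-fold higher on the arrays labelled Mkl1, and Myh11, the smooth muscle myosin heavy chain, 2.49-fold. Myh11 had an adjusted p of 0.1409 without Srf replicate 2, 0.08612 without Srf replicate 1, 0.1202 without Mkl1 replicate 1 and 0.1139 without Mkl1 replicate 2. Of the defining smooth muscle markers, Lmod1 and Myocd were not above background on both arrays of any group. The summed level of these 3 markers, which follows Myh11, was -2.55 to -2.38 on the arrays labelled Mkl1, -3.40 to -3.11 on those labelled Srf and -5.21 to -4.70 with EGFP.

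The 6 actin genes differed by unlike amounts. Acta1, skeletal α-actin, stood at 1.08 and 1.09 on the arrays labelled Mkl1 and at -2.64 and -2.48 on those labelled Srf, a 12.5-fold difference (-3.64 ± 0.12). Actc1, cardiac α-actin, was 3.17-fold higher on the arrays labelled Mkl1 (-1.67 ± 0.26). Actg2, enteric smooth muscle γ-actin, differed by -0.81 ± 0.11, below 2-fold, although it lay 4.60 above EGFP on the arrays labelled Srf and 5.42 above it on those labelled Mkl1. Of the cytoplasmic actins, Actb stood at 8.98 and 8.99 on the arrays labelled Srf and at 9.04 and 9.05 on those labelled Mkl1 (-0.06 ± 0.05, limma, adjusted p = 0.4243), and the brightest Actg1 probe differed by -0.13 ± 0.07. The other 4 Actg1 probes differed by -0.14, -0.65, -0.83 and -0.87.

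**Figure D2:**
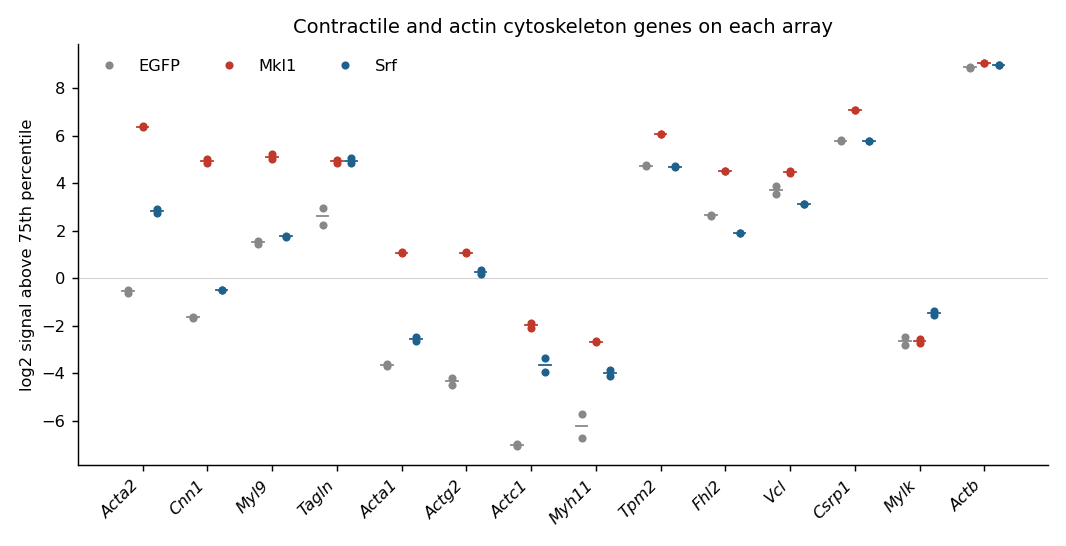
Level of 14 contractile and actin cytoskeleton genes on each EGFP, Mkl1 and Srf array, as log2 signal relative to the 75th percentile of the array; points are single arrays, 2 a group, and short lines their means. Acta2, Cnn1, Myl9 and Acta1 are far higher on the arrays labelled Mkl1 than on those labelled Srf, Tagln is level between them, and Mylk is higher on the arrays labelled Srf.

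Of the striated muscle genes, those called other than Acta1 and Actc1 were higher on the arrays labelled Srf. Of 20 tested, 7 were higher on the arrays labelled Srf and 2, both actins, were higher on those labelled Mkl1, 11 were not called and 12 differences were above 0, with a median of 0.51. The 7 included the troponins Tnnc1 (4.45-fold), Tnnt3 (3.99-fold) and Tnni2 (2.69-fold), the sarcomeric M-band protein Myom1 (4.89-fold) and the transcription factor Mef2c (2.34-fold). The other 2 lost their call, at a similar fold, when an array was left out: Actn2 (1.14), a sarcomeric α-actinin, had a limma adjusted p of 0.08352 to 0.1933 with differences of 0.97 to 1.31, whichever of the 4 arrays was left out. Myl1 (1.28), a myosin light chain, had one of 0.06595 without Mkl1 replicate 2 and 0.06459 without Srf replicate 2, at differences of 1.17 and 1.09. Tnnt3 stood at 2.16 and 2.31 on the arrays labelled Srf, 0.30 and 0.18 on those labelled Mkl1 and -1.47 and -1.07 with EGFP, so it was higher than EGFP with both factors. The myogenic regulators Myod1, Myog and Myf5 were not above background on any of these arrays.

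Promoters of the called genes are shown because the CArG box is where both proteins act. The table of RefSeq promoters (GRCm38.p6, 250 bases before to 50 after the start) held a window for 546 of the 747 genes higher on the arrays labelled Srf and for 296 of the 388 higher on those labelled Mkl1. The CArG box was searched as CCWWWWWWGG, with W for A or T and no mismatch allowed. It was found in 2.75% of the former and 7.09% of the latter, against 1.78% of 12502 tested genes with a window and 1.63% of all 32851 windows. The ternary complex factor site CCGGAA, searched on both strands, was found in 10.6% and 13.5%, against 26.6% of tested genes and 14.9% of all windows. The AP-1 site TGANTCA was found in 8.79% and 14.2%, against 6.89% of tested genes and 7.81% of all windows, and the Tead site GGAATG in 21.4% and 16.9%, against 15.1% and 14.7%. A match is a description of letters and no evidence of binding. Within the 250 bases before the start, matches to the CArG box stood in 20 of the genes higher on the arrays labelled Mkl1, among them Acta1, Actc1, Myl9, Srf itself, Fhl2, Vcl, Cnn2, Fhl1 and Hopx, and in 14 higher on those labelled Srf, among them Lef1, Lama2, Ebf3, Igf2 and Myom1. In the windows used, no such exact match was found for Acta2 or Cnn1. Boxes with a changed base were not searched, so this does not show that these promoters lack one. The 250 bases before the start of 4 genes higher on the arrays labelled Mkl1 and of 2 members of the lists below or above that were higher on those labelled Srf follow, 5′ to 3′ on the strand of the gene, with CArG boxes in capitals. These genes were picked after their values were seen. Acta1 lies at chr8:123894776-123895025 on the minus strand, Myl9 at chr2:156775214-156775463 on the plus strand, Srf at chr17:46556163-46556412 on the minus strand, Vcl at chr14:20929148-20929397 on the plus strand, Lef1 at chr3:131112541-131112790 on the plus strand and Myom1 at chr17:71019307-71019556 on the plus strand.
Acta1: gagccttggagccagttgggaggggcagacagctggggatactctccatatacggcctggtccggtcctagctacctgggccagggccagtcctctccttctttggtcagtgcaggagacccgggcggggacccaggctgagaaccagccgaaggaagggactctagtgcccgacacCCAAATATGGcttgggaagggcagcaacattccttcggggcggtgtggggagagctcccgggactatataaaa
Myl9: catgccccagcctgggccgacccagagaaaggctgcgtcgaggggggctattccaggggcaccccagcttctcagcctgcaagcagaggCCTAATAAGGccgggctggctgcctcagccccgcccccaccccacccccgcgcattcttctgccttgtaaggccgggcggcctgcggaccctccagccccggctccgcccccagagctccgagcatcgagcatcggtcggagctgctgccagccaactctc
Srf: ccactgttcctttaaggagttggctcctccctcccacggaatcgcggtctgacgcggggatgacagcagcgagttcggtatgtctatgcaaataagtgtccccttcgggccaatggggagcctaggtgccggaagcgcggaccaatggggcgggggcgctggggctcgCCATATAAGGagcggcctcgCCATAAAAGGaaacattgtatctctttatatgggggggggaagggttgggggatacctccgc
Vcl: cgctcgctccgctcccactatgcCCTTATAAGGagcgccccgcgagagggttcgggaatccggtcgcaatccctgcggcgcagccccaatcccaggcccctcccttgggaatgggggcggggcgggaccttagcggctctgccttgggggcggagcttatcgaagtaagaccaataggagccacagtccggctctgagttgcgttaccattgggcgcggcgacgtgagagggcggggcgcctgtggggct
Lef1: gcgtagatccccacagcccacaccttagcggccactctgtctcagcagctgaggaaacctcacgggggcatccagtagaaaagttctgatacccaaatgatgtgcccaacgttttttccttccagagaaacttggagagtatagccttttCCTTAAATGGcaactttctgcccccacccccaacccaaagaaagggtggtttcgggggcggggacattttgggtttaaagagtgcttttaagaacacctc
Myom1: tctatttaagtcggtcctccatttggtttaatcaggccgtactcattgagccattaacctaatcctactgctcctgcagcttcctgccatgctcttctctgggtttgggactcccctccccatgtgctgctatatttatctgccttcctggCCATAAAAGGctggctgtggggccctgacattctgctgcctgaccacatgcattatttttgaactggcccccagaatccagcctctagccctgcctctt
The Srf promoter held a pair of CArG boxes, at -82 and -62 from the start, and that of Acta1 held 1 at -73. The box of Myl9 began at -161 and that of Vcl at -227. Lef1 and Myom1, which were higher on the arrays labelled Srf, held 1 box each, at -100 and -99.

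The actin cytoskeleton and focal adhesion list moved to the Mkl1 side without exception among called genes: of 41 tested, 9 were higher on the arrays labelled Mkl1 and none was higher on those labelled Srf, only 2 of the 41 differences were above 0, and the median was -0.49. Fhl2, a LIM-domain cofactor of Srf, stood at 4.53 and 4.53 on the arrays labelled Mkl1, at 1.92 and 1.91 on those labelled Srf and at 2.64 and 2.68 with EGFP. The EGFP level thus lay between the factors, and the difference was -2.61 ± 0.06 (6.11-fold). Vcl, the focal adhesion protein vinculin, stood at 4.53 and 4.44, at 3.11 and 3.12 and at 3.54 and 3.90 in the same order of groups, again with EGFP in between. Csrp1, a LIM protein of actin bundles, was 2.45-fold higher on the arrays labelled Mkl1, with the arrays labelled Srf at 5.78 and 5.79 next to EGFP at 5.82 and 5.76. Pdlim5 (3.01-fold), Cnn2 (2.52-fold), Actn1 (2.25-fold) and Tes (2.14-fold), all proteins of stress fibres or adhesions, lay in the same direction, although other probes for Pdlim5 differed by only -0.43 and -0.41. Fhl1, another LIM protein of the list, was 2.46-fold higher on the arrays labelled Mkl1, with a limma adjusted p of 0.1475 without Mkl1 replicate 1, 0.07385 without Mkl1 replicate 2 and 0.1592 without Srf replicate 1.

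Wnt pathway genes of the list lay mostly to the Srf side. Of 18 tested ligands, antagonists and targets, 10 were higher on the arrays labelled Srf and none was higher on those labelled Mkl1, with a median difference of 1.31, the highest of the 23 lists. Among the secreted antagonists, Dkk1, which blocks the Lrp coreceptors, stood at 1.21 and 1.19 on the arrays labelled Srf, at -3.74 and -3.70 on those labelled Mkl1 and at -1.39 and -1.23 with EGFP. This 30.2-fold difference (4.91 ± 0.09, limma, adjusted p = 5.888e-07) was made of a level 2.51 above EGFP with Srf and 2.41 below it with Mkl1. Sfrp2, a soluble Wnt-binding protein, stood at 1.91 and 1.82, at -2.66 and -2.62 and at -1.61 and -1.36 in the same order, a 22.7-fold difference. Frzb, another of that family, was at least 5.33-fold higher on the arrays labelled Srf, with adjusted p of 0.07861 without Mkl1 replicate 2, 0.05811 without Srf replicate 1 and 0.056 without Srf replicate 2. Of the agonists, Rspo2 was 5.11-fold and Rspo3 3.03-fold higher on the arrays labelled Srf, and the ligands Wnt5b and Wnt4 were 2.69-fold and 2.30-fold higher, with another Wnt4 probe at 0.95. Rspo3 and Wnt5b fell against EGFP on the arrays labelled Mkl1, by 1.24 and 1.44, and stood close to EGFP on those labelled Srf. Among pathway targets, Lef1, the nuclear partner of β-catenin, and Nkd1, a feedback inhibitor, were 2.75-fold and 2.69-fold higher, with another Nkd1 probe at only 0.21, whereas Axin2 and Sp5 were not above background on both arrays of either group. Lgr5, a receptor for R-spondins, was 3.28-fold higher, with adjusted p of 0.0526 without Mkl1 replicate 1 and 0.05517 without Srf replicate 1. Outside the list, by genes looked up after their values were seen, the ligand Wnt9a was higher on the arrays labelled Mkl1 (-1.19), and the ligands Wnt6 (1.66) and Wnt10a (1.05) and the receptor Fzd4 (1.71) were higher on those labelled Srf.

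Called matrix and fibroblast genes also lay mostly to the Srf side. Among 34 extracellular matrix genes tested, 7 were higher on the arrays labelled Srf and none on those labelled Mkl1 (median 0.34), and among 20 mesenchymal genes 8 were higher on the arrays labelled Srf and 1 on those labelled Mkl1 (median 0.49). Lum, a small leucine-rich proteoglycan, stood at -1.39 and -1.55 on the arrays labelled Srf and was not above background on either array labelled Mkl1 or with EGFP, so it was at least 15.5-fold higher on the arrays labelled Srf than on those labelled Mkl1. Dcn, its relative decorin, stood at 2.59 and 2.59 on the arrays labelled Srf, at -0.07 and -0.04 on those labelled Mkl1 and at 1.78 and 1.69 with EGFP. Fbln5, an organiser of elastic fibres, was 13.6-fold higher, and Fap, the protease of activated fibroblasts, 14.1-fold. Fap stood at -0.55 and -0.48 on the arrays labelled Srf, -4.41 and -4.26 on those labelled Mkl1 and -1.98 and -2.27 with EGFP. Col11a1, a fibrillar collagen, differed from EGFP by -0.71 with Srf and -2.63 with Mkl1, and by 1.93 between the factors. Of the mesodermal transcription factors, Meox2 was 8.52-fold, Hand2 4.65-fold and Twist2 2.16-fold higher on the arrays labelled Srf, Meox1 was at least 4.07-fold higher, and Pdgfrb, the receptor of pericytes and fibroblasts, was 3.72-fold higher. Thy1, a surface glycoprotein of fibroblasts and neurons, was the 1 called gene on the other side, 3.04-fold higher on the arrays labelled Mkl1. Of the 20 mesenchymal differences 14 were above 0, and Twist1, a relative of Twist2, differed by -0.33 ± 0.06 and was not called.

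These arrays measured whole cultures, so a smaller number of cells of a type and less RNA per cell cannot be told apart. Of 8 mesenchyme markers, 8 were above background with Srf and 7 with Mkl1 and with EGFP. Their summed level, as log2, was 6.01 to 6.11 on the arrays labelled Srf, 5.58 to 5.80 on those labelled Mkl1 and 6.57 on each EGFP array, above both. The sum mostly follows Col3a1, its brightest member, at 6.04 and 6.11 with EGFP and 5.27 and 5.20 on the arrays labelled Srf. Against EGFP, Dcn, Lum, Pdgfrb, Col1a1 and Thy1 were higher on the arrays labelled Srf, and Twist1, Prrx1 and Col3a1 lower. The part of cell composition in the matrix and fibroblast differences was not tested.

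**Figure D3:**
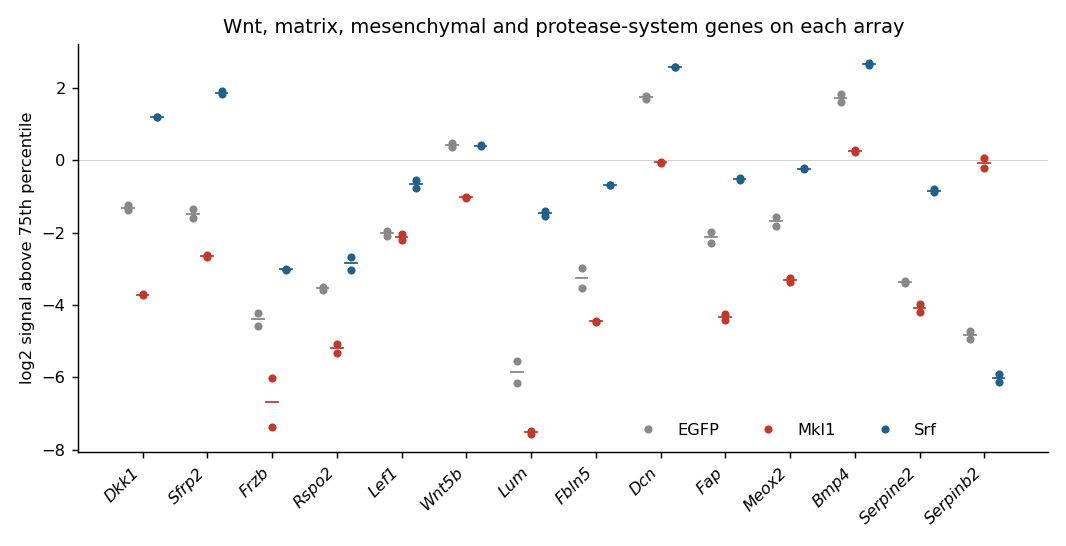
Level of 14 Wnt, matrix, mesenchymal, growth factor and protease-system genes on each EGFP, Mkl1 and Srf array, as log2 signal relative to the 75th percentile of the array; points are single arrays, 2 a group, and short lines their means. For Dkk1, Sfrp2, Dcn, Fap and Meox2 the EGFP arrays lie between the factors, with the arrays labelled Srf highest, and for Serpinb2 the arrays labelled Mkl1 are highest; Lum on the Mkl1 and EGFP arrays, Frzb on the Mkl1 arrays and Serpinb2 on the Srf arrays were not above background.

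Called genes of the TGF-β ligand and feedback list divided. Of 23 genes tested, 3 were higher on the arrays labelled Srf (13%) and 2 on those labelled Mkl1 (8.7%), against 4.75% and 2.47% of all named genes. Bmp4 stood at 2.64 and 2.70 on the arrays labelled Srf, at 0.29 and 0.23 on those labelled Mkl1 and at 1.61 and 1.83 with EGFP, a 5.32-fold difference. Tgfb2 differed in the same way by 2.23 ± 0.10, and Ltbp2, a latent TGF-β binding protein, was 3.57-fold higher on the arrays labelled Srf. The BMP antagonist Grem1 and the activin antagonist Fst lay on the Mkl1 side, Fst by 3.45-fold and Grem1 by at least 2.37-fold. Grem1 had a limma adjusted p of 0.05938 without Mkl1 replicate 1 and 0.05736 without Mkl1 replicate 2.

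The plasminogen and matrix protease list lay to the Mkl1 side, with 7 of 17 tested higher there and 2 higher on the Srf side (median -0.55). Serpinb2, the intracellular plasminogen activator inhibitor PAI-2, stood at -0.20 and 0.06 on the arrays labelled Mkl1 and at -4.71 and -4.93 with EGFP, and was not above background on either array labelled Srf, which makes it at least 37.7-fold higher on the arrays labelled Mkl1. The stromelysins Mmp10 and Mmp3 were 4.41-fold and 3.55-fold higher there, and the inhibitor Timp3 3.24-fold. Plaur, the urokinase receptor, differed by -1.11, with adjusted p of 0.05629 without Mkl1 replicate 2 and 0.05471 without Srf replicate 1. In the other direction Serpine2, protease nexin 1, stood at -0.81 and -0.87 on the arrays labelled Srf, at -4.20 and -3.96 on those labelled Mkl1 and at -3.32 and -3.40 with EGFP, and the aggrecanase Adamts5 was 3.74-fold higher with Srf.

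Called inflammatory and lipid genes lay mostly on the Srf side, although most members of both lists were not called. Calls over all named genes also lay mostly there, at 4.75% against 2.47% on the Mkl1 side. Of 27 chemokines, cytokines and inflammatory genes, 7 were higher on the arrays labelled Srf (25.9%) and 2 on those labelled Mkl1 (7.41%), with a median of 0.30. Ccl8, a monocyte attractant, stood at 1.11 and 0.48 on the arrays labelled Srf, at -3.42 and -4.16 on those labelled Mkl1 and at -3.34 and -4.13 with EGFP, a 24.0-fold difference. The acute phase protein gene Saa3 (9.25-fold) and the neutrophil attractants Cxcl5 (4.55-fold) and Cxcl1 (2.86-fold) followed, the last pair with EGFP between the factors. Ptgs2, the inducible cyclooxygenase, was 3.58-fold higher on the arrays labelled Mkl1. Of 25 lipid handling genes, 6 were higher on the arrays labelled Srf and none on those labelled Mkl1, but 19 were not called and the median was 0.09. Lpl, lipoprotein lipase, led them, at 2.07 and 2.04 on the arrays labelled Srf, -0.76 and -0.67 on those labelled Mkl1 and -1.42 and -1.37 with EGFP, and the cholesterol exporters Abca1 and Abcg1 were 3.39-fold and 2.70-fold higher. The summed level of 4 macrophage markers also moved, at 0.85 to 0.90 on the arrays labelled Srf against -0.75 to -0.52 on those labelled Mkl1 and -0.29 to -0.22 with EGFP. All 8 macrophage and microglia genes tested differed by above 0 (median 0.43), with 1 of them called. It was Csf1r, the macrophage growth factor receptor (3.19-fold, with 1 of its 3 probes at -0.04). Of the other 3 markers, Ptprc and Aif1 differed by 0.02 and 0.22 and Tyrobp was not above background on either group. The part of such cells in the inflammatory and lipid differences was not tested.

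Immediate-early genes as a group showed little difference, with 3 of 30 higher on the arrays labelled Srf (10%) and 1 on those labelled Mkl1 (3.33%). The shares over all named genes were 4.75% and 2.47%, and the median of the list was -0.09. Fos stood at -1.41 and -1.33 on the arrays labelled Srf, at -3.41 and -3.49 on those labelled Mkl1 and at -3.29 and -3.21 with EGFP, so Mkl1 and EGFP were level and Srf was 4.23-fold higher. Egr1 stood at 3.03 and 3.24, at 1.34 and 1.33 and at 1.94 and 2.15 in the same order (3.47-fold). Fosl1, a Fos relative of the AP-1 family, was the 1 member higher on the arrays labelled Mkl1 (2.29-fold), with adjusted p of 0.0586 without Mkl1 replicate 2 and 0.05255 without Srf replicate 1, and Egr4, which completes the 3, lost its call without any single one of the 4 arrays (adjusted p of 0.06087 to 0.2556). Of 12 Srf cofactors and regulators tested, none but Srf and Phactr1 was called. Phactr1, an actin-binding phosphatase regulator, was 2.15-fold higher on the arrays labelled Srf, with other probes at 0.79 and 0.91, while the brightest probes of the others differed by 0.23 ± 0.06 for Mrtfb, 0.03 ± 0.06 for Elk1, 0.13 ± 0.09 for Elk4 and -0.53 ± 0.07 for Elk3. Other probes ran from -0.72 to 0.24 for Mrtfb and from -0.25 to 0.07 for Elk4. Among 21 Yap and Taz targets, the secreted CCN protein gene Ccn2 was 2.57-fold higher on the arrays labelled Srf, together with Tgfb2, but its relative Ccn1 stood at 3.61 and 3.70 with Srf and 3.62 and 3.58 with Mkl1 (95% interval -0.20 to 0.32).

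Neural genes went both ways. Of 30 neuronal genes tested, 5 were higher on the arrays labelled Srf and 5 on those labelled Mkl1, with a median of 0.31 and 19 differences above 0. That is 16.7% in each direction, against 4.75% and 2.47% of all named genes. Stmn2, a microtubule regulator of growing axons, stood at -1.43 and -1.52 on the arrays labelled Srf and at 2.53 and 2.28 with EGFP. It differed from EGFP by -3.88 on the arrays labelled Srf and by -1.46 on those labelled Mkl1, so it was lower on both and lowest on those labelled Srf. The other 4 on the Mkl1 side were Nefl, Dpysl3, Crmp1 and Gap43. Those on the Srf side included Tubb3, a neuronal tubulin (3.52-fold), Ina, Syt1 and Dlx1. Of 25 neural progenitor genes, Prom1, Fabp7, Id4 and Slc1a3 were higher on the arrays labelled Srf and Hopx and Nes on those labelled Mkl1. Of 11 astrocyte genes, 5 were higher on the arrays labelled Srf and none on those labelled Mkl1, led by the secreted proteins Sparcl1 (3.46 ± 0.10 on the log2 scale), Clu (4.32-fold) and Apoe (2.53-fold), each with EGFP between the factors. The median of the 11 was only 0.07, with 6 differences above 0, and it was -0.03 without Mkl1 replicate 2. Aldh1l1, a folate enzyme of astrocytes, differed by 1.09, and by 0.96 without Mkl1 replicate 2. The defining astrocyte markers did not move with them: Gfap and Aqp4 differed by -0.15 and -0.02, and S100b and Slc1a2 were not above background in either group.

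The remaining lists held few calls. No cell cycle gene of 29 was called by limma, since none reached 2-fold, although 16 had an unadjusted p and 12 an adjusted p under 0.05. Their median was -0.18, and 27 of the 29 differences were below 0. Of 31 interferon-stimulated genes 4 were higher on the arrays labelled Mkl1, none on those labelled Srf, with a median of -0.42, and 2 were left without Srf replicate 2. Gbp4, an interferon-induced GTPase, led them: it stood at -4.49 and -4.85 on the arrays labelled Srf, at -2.14 and -2.22 on those labelled Mkl1 and at -1.76 and -1.86 with EGFP, so that the arrays labelled Srf stood apart. Gbp2 was 2.07-fold higher on the arrays labelled Mkl1. Of 16 epithelial genes, the keratins Krt19 (4.08-fold) and Krt8 (2.44-fold) were higher on the arrays labelled Mkl1 and Sprr1a (11.8-fold) was higher on those labelled Srf. Cldn3, the other gene on the Srf side, had an adjusted p of 0.1032 without Mkl1 replicate 2 and 0.09286 without Srf replicate 1. The summed level of 3 epithelial markers was 6.34 to 6.53 on the arrays labelled Mkl1, 5.1 to 5.2 on those labelled Srf and 5.16 to 5.61 with EGFP, but Krt8 made it up, as Cdh1 differed by -0.04 and Epcam by -0.53. Of 14 pluripotency genes, Esrrb, a nuclear receptor, was 5.87-fold higher on the arrays labelled Srf. Nanog differed by 1.02, with other probes at 0.75 and 0.54, and by 0.99 without Mkl1 replicate 2 or Srf replicate 1, and the pluripotency factor gene Pou5f1 differed by 0.12. Of 12 oligodendrocyte genes 1, Ugt8a, and of 7 endothelial genes 1, Vwf (7.62-fold), were higher on the arrays labelled Srf. Each of these counts rests on 1 gene, and 4.75% of all named genes were higher there.

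**Figure D4:**
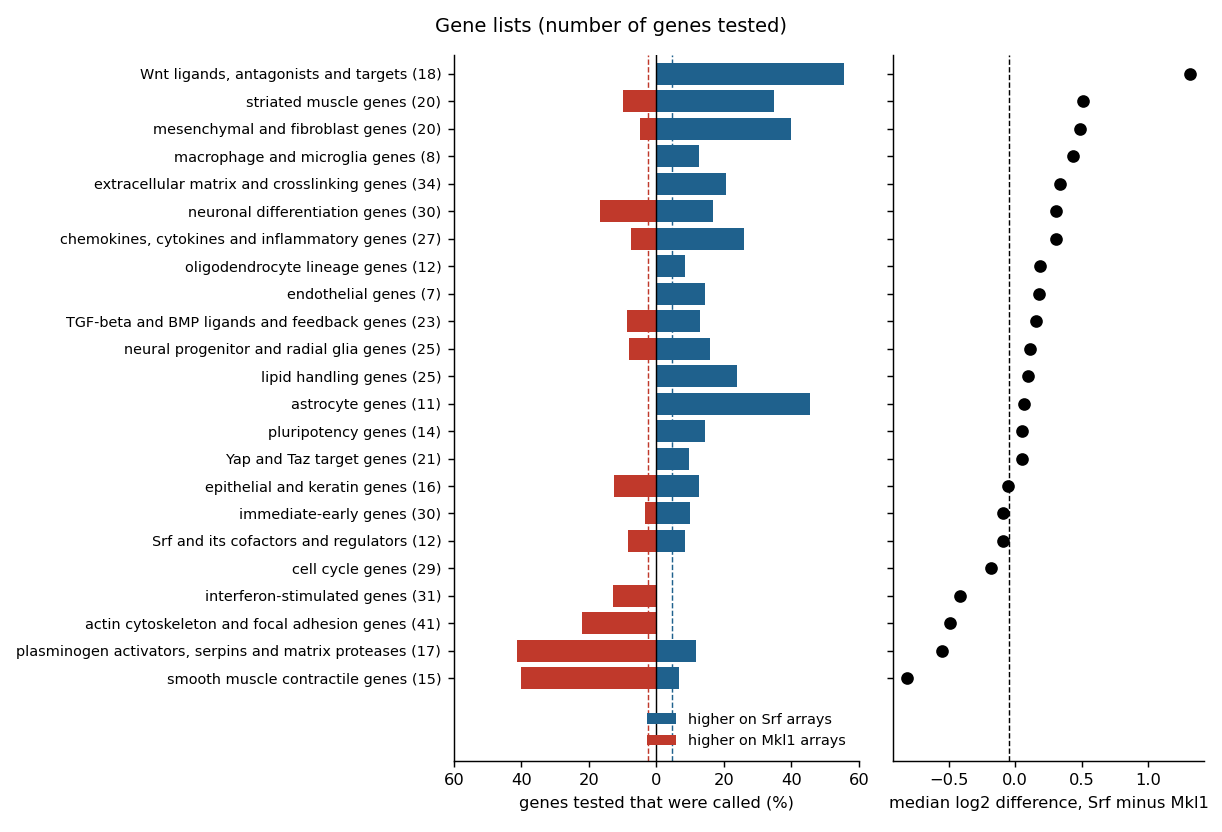
Share of the tested genes of each of 23 lists that were called higher on the arrays labelled Srf (right) or Mkl1 (left), and the median log2 difference of each list; dashed lines mark the values over all 15732 named genes (4.75% and 2.47% called, median -0.05), and numbers in parentheses are genes tested. Wnt genes have the highest median, 1.31, and smooth muscle contractile genes the lowest, -0.81.

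Outside the lists, the rule on size named further genes. On the Mkl1 side, Dynap, a plasma membrane protein, was 22.9-fold higher, standing at 2.93 and 2.97 on the arrays labelled Mkl1, -1.57 and -1.58 on those labelled Srf and 0.74 and 0.88 with EGFP. Il18rap, an interleukin 18 receptor subunit, was 13.3-fold higher, Glipr1 8.58-fold, Tmem171 8.03-fold and Ccbe1 7.21-fold, but other Ccbe1 probes differed by only -0.49 and -0.90. The cornified envelope genes Sprr2k, Lce1i and Lce1g, whose families hold near-identical copies that probes may share, were 12.6-fold, 10.5-fold and 10.3-fold higher, with a second Lce1i probe at -2.03 against -3.40. On the Srf side, Tmem45a2 was 32.7-fold, Rarres2, the chemerin precursor, 16.3-fold, the phosphodiesterase Pde1a 13.4-fold, the signalling adaptor Dok2 12.9-fold, Bpifb3 12.2-fold and Lama4, a laminin chain, 11.8-fold higher. Mycn, a Myc family transcription factor, stood at -1.86 and -1.76 on the arrays labelled Srf and was not above background on the arrays labelled Mkl1 or with EGFP, which makes it at least 12.3-fold higher. Igfbp5, an insulin-like growth factor binding protein, was at least 12.9-fold and Ccdc3 at least 13.0-fold higher.

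The Actb knockdown arrays gave a comparison that shared no array with the 4 above, in cells where β-actin was targeted. Actb differed by -0.53 with shActb_1 and by -0.65 with shActb_2. Of 15191 genes tested in both comparisons, 1.06% were higher and 1.19% lower with shActb than with shEGFP when both hairpins had the same sign. Of 381 genes higher on the arrays labelled Mkl1, 54 were higher with shActb (14.2%) and 8 were lower (2.10%). Of 683 genes higher on the arrays labelled Srf, 13 were higher with shActb (1.90%) and 92 were lower (13.5%). Read from the other side, of 161 genes higher with shActb 33.5% were higher on the arrays labelled Mkl1 and 8.07% on those labelled Srf, and of 181 genes lower with shActb 50.8% were higher on the arrays labelled Srf and 4.42% on those labelled Mkl1. Across the 15191 genes, which are not independent replicates, the differences had a Pearson correlation of -0.32. Cnn1 rose by 4.49 with shActb, Acta2 by 4.73, Acta1 by 4.10, Myl9 by 3.72 and Serpinb2 by 2.57. Tagln, which was level between the factors, rose by 2.36. Dkk1 fell by 2.36, Meox2 fell by 2.71, Col11a1 fell by 2.95, Bmp4 fell by 1.85 and Dcn fell by 1.76.

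The hairpins differed in how far this held, and the layout of the slides differed with them. The shActb_1 arrays lay in positions 1 and 2 and the shEGFP arrays in positions 3 and 4 of a row, as Mkl1 and Srf did, while the shActb_2 arrays lay in positions 3 and 4, as shEGFP did, on another slide. With shActb_1 alone, 20.9% of the genes higher on the arrays labelled Srf were lower and 0.586% were higher, against 1.59% and 0.777% of all genes. With shActb_2 alone, 11.6% were lower and 7.03% were higher, against 2.76% and 2.36%. Of the genes higher on the arrays labelled Mkl1, 12.6% were higher with shActb_1 and 21.0% with shActb_2, and 1.84% and 3.41% were lower. The correlation across genes was -0.41 with shActb_1 and -0.18 with shActb_2. Sfrp2 and Fap fell by 1.57 and 1.69 with shActb_1 and differed by 0.26 and 0.50 with shActb_2. The part of array position in the values with shActb_1 was not tested.

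**Figure D5:**
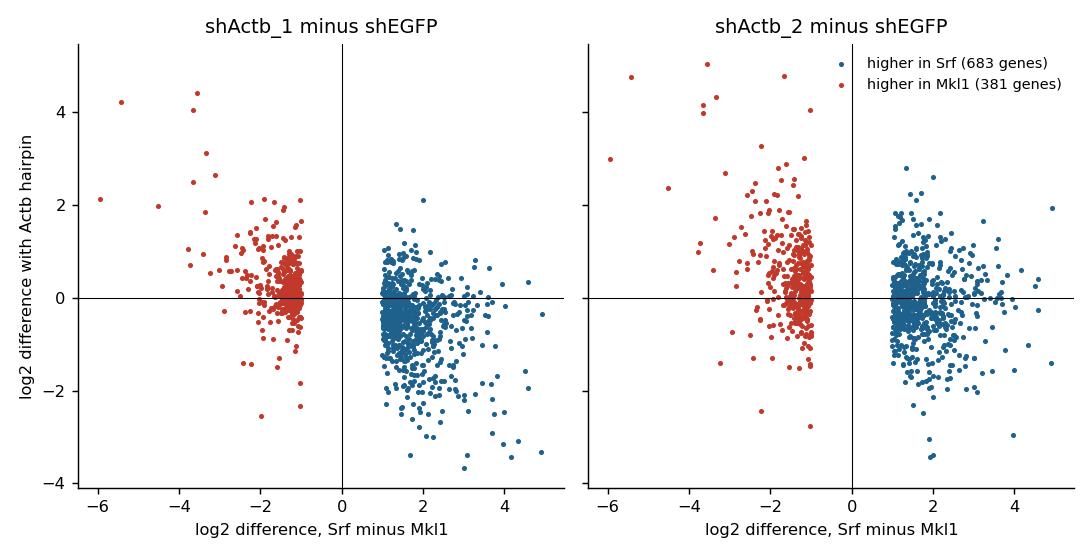
Log2 difference between Srf and Mkl1 arrays (horizontal) against the log2 difference with each Actb hairpin and shEGFP (vertical) for the 683 and 381 genes called in each direction and also tested with shActb; each point is 1 gene. Genes higher on the arrays labelled Mkl1 lie mostly above 0 with both hairpins, and genes higher on the arrays labelled Srf lie mostly below 0 with shActb_1 and on both sides of 0 with shActb_2.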

How the data were processed

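Total RNA of 12 NPC samples was hybridised to 1-colour Agilent mouse arrays, 2 arrays for each of 6 groups, which the study describes as technical duplicates for the Actb knockdown. Per the file headers, the deposited intensity values are spot signals that Feature Extraction 11.5.1.1 had background-subtracted, with no scaling between arrays. The deposited table of log2 values had been shifted by the authors to the 75th percentile of each array: for 100% of 55681 probes it equalled the values computed here within 0.01. The labels and the study's methods name different array formats, and the 62976 spots per array match the larger format, that of the methods.

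Control spots were left out, as were outlier spots unless a probe had no others, and spots of 1 probe averaged. The log2 signal minus the 75th percentile of the array was fitted with limma 3.58.1 (R 4.3.3) over all 12 arrays by group, and the contrast Srf minus Mkl1 was taken. A probe was tested when it was well above background on both arrays of either group (35718 probes), and called when it differed over 2-fold with p under 0.05 after Benjamini-Hochberg adjustment over all tested probes. RefSeq accessions (GRCm38.p6) named 28026 probes, or 21154 genes, each read from its brightest probe over 12 arrays. Text was limited to fixed genes, to the 12 largest differences with both groups measured and the 6 largest bounds in each direction, and to list members (up to 6 called in each direction, and uncalled ones where a sentence needs them); in the Wnt and the actin cytoskeleton lists more called members than that were named, and genes with a CArG box in the promoter were named after their values were seen. The members and all 23 lists were chosen with earlier results of these data known. Replicate numbers did not pair the arrays (see the limits on processing). In simulated data on 35718 probes, 80% of changes of 1.5 and 93% of changes of 3 on the log2 scale were called, with 2.81% false among 178 calls. The simulation changed 100 probes at each size, took every probe as detected and drew independent noise for each array. It held no effect of array position or shared culture, so 2.81% is not the false share among the real calls. Alternatives covered the background correction (normexp with offset 50 on median signals), quantile normalization, the deposited table, filters, thresholds, the replicate block, the arrays fitted and each array left out. The number of arrays limits the precision.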

Additional observations from a re-analysis of the deposited data

How the results depend on the processing

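With normexp background correction 902 probes differed between Srf and Mkl1 (555 higher on the arrays labelled Srf, 347 on those labelled Mkl1), and with the adjusted p alone 9134 did (3963 and 5171), because no fold was asked for. Under normexp 12 of 46 list counts and 9 of 23 list medians moved and none of the medians changed sign: genes higher with Mkl1 fell to 0 in the TGF-β list, 1 in the striated muscle list, 2 in the interferon list and 4 in the protease list, and genes higher with Srf fell to 0 in the smooth muscle, cofactor and oligodendrocyte lists, 1 in the epithelial and pluripotency lists, 2 in the neural progenitor and neuronal lists and 4 in the matrix list. The medians became 0.86 for Wnt, -0.73 for smooth muscle, -0.43 for actin cytoskeleton, -0.24 for protease, 0.37 for mesenchymal, 0.30 for macrophage, 0.17 for inflammatory, 0.17 for neuronal and 0.03 for neural progenitor genes. Taken as 1 probe per named gene the count was 1135 (747 and 388), since fewer features were tested. Leaving out 1 array gave 1725 to 1874 probes, 1006 to 1215 of them higher with Srf and 639 to 719 higher with Mkl1. Arrays of the same number correlated in their deviations at r = 0.0475 for Srf and Mkl1 and at -0.0976 to 0.2328 over 9 pairs of groups, 5 of them not over 0.1, so the numbers were not taken as pairing. With a replicate block 1798 probes were called over all 12 arrays and 1310 when only the 4 arrays were fitted. Of the genes higher with Srf, 4 were higher with shActb_1 alone and 48 with shActb_2 alone, and 143 were lower with shActb_1 alone. Of the genes higher with Mkl1, 13 were lower with shActb_2 alone. In the 250 bases before the start only, 21.6% of tested genes held CCGGAA, 6.13% TGANTCA and 13.3% GGAATG, because the window is shorter. The median of the Yap and Taz targets ran from -0.0206 without Mkl1 replicate 2 to 0.0755 when 1 array was left out, and that of the astrocyte genes from -0.0295 without Mkl1 replicate 2 to 0.388. The causes of the other changes were not tested. Of 148 named differences none changed sign under any alternative run on the same probe, and 38 were no longer called with normexp, the most under any setting. Other probes of a gene were not among these alternatives, and some had the opposite sign, such as 1 of Csf1r (-0.04). Probes dim on some of the 4 arrays were called more often (12.8%) than those above background on all 4 (4.17%). Such dim probes were tested only when the other group was above background on both arrays. The filter thus favours calls among them, and the gap is not a result about these genes. List members that were dim in 1 group entered in the same way.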
